A study of Mus musculus with 9 samples.

Results

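The basement membrane genes are the 10 genes Col4a1, Col4a2, Lama2, Lama4, Lama5, Lamb1, Lamc1, Nid1, Nid2 and Hspg2. They were chosen by symbol, each matched 1 row of the deposited table, and they make up 10 of its 18049 genes. A basement membrane is a thin sheet of matrix on which epithelia and endothelia rest and which wraps muscle, fat and Schwann cells. It is built from a laminin network and a collagen IV network, which nidogens and the heparan sulfate proteoglycan perlecan join to each other. Collagen IV is a triple helix whose most widespread form holds 2 α1 chains and 1 α2 chain, and a laminin is a trimer of 1 α, 1 β and 1 γ chain. Fibroblasts are known as a source of many of these proteins, and macrophages are not known as a main source.

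Bulk RNA-seq was done on 9 clones of MPC, murine primary cells cultured from tumors, all from WTg mice. WTg mice carry EL1-Luc and EL1-Tag, a luciferase and an SV40 large T antigen transgene driven by the elastase 1 promoter of pancreatic acinar cells, together with CAG-Mettl3, which expresses the m6A RNA methyltransferase METTL3 from a ubiquitous promoter. The EL1 parent was on the FVB/N background and the Mettl3 parent was made in BL/6 mice, and the age of the mice at tumor collection is not in the labels. Pancreatic tumors were minced and plated, colonies were picked with cloning cylinders, and the clones were kept in DMEM with 10% FBS. All 9 are labelled as untreated fibroblasts of the pancreas, although a protocol field of the same labels names NMS-P937, an inhibitor of the kinase PLK1. There is no MPC group without the Mettl3 transgene, so the data give the spread of the basement membrane genes between clones and no effect of the transgene.

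The 9 libraries held between 12198022 and 20453923 reads over the listed genes, with a median of 18082561. Column names carry 3 prefixes, called A, B and C here, with 1, 4 and 4 libraries (A, B1 to B4 and C1 to C4), and the sources used here do not say what a prefix stands for. Xist, which is expressed from the inactive X chromosome of female cells, was at 29664 to 32912 normalized counts in the prefix B libraries and at 0 to 8.39 in the others. The Y-linked Ddx3y was at 0 in the prefix B libraries and at 2376 to 2720 in the others. Fibroblast markers were present (13 of 14 above 3 reads in every library, with Lum the exception), but so were macrophage markers, all 16 of which were above 3 reads in every library. The summed fibroblast markers ranged from 372684 to 1043885 normalized counts and the summed macrophage markers from 579863 to 917043, the latter led by Lyz2, the macrophage lysozyme. Endothelial marker sums were at most 932 and epithelial sums at most 188, with Epcam at 0 in every library. Mural sums ran from 471 (C1) to 6508 (C3). Schwann sums were at most 227 and rest on the 2 of 4 markers that were listed. Acinar sums were 2415 in C3 and at most 396 in the other clones. In RNA from a whole culture, fewer cells of a type and less RNA per cell cannot be told apart. The labels do not say which clones came from separate tumors or mice. The sex-linked genes above differ between prefix B and the other libraries, so the clones came from more than 1 mouse. Each p-value below treats the 9 clones as independent, which clones of the same mouse are not, and describes these clones only.

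Col4a1 and Col4a2 lie head to head on opposite strands, and this arrangement is the reason their start region is shown first. In the promoter table for GRCm38.p6 the start of Col4a1 is at position 11312826 of chromosome 8, on the minus strand. That of Col4a2 is at position 11312805, on the plus strand, 21 bases away. The Col4a1 start thus lies inside Col4a2, and the 2 genes overlap at their starts, as they also do in the RefSeq gene table. The 300-base windows around the starts, 250 bases before to 50 bases after, share 78 bases. The 30 bases below, from chr8:11312773-11312802 on the plus strand, begin 32 bases before the Col4a2 start and lie inside Col4a1. The CCAAT box of the Col4a2 window is in capitals. The CCAAT box of the Col4a1 window is another match, outside these bases.
Col4a1/Col4a2: CCAATttgttggcgctgccccctcccctcg

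The bases directly before the start of 4 other members, as the RefSeq gene table gives it, are shown to compare their start regions with that of the collagen IV pair. They are chr13:13437482-13437601 (plus strand) for Nid1, chr4:137468631-137468750 (plus strand) for Hspg2, chr12:31265043-31265145 (plus strand) for Lamb1 and chr2:180225905-180226024 (minus strand) for Lama5. Capitals mark CCAAT boxes (CCAAT, or ATTGG on the other strand) and GC boxes (GGGCGG, or CCGCCC on the other strand).
Nid1: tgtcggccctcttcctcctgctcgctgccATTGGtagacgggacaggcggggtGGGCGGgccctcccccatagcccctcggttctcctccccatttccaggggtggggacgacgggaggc
Hspg2: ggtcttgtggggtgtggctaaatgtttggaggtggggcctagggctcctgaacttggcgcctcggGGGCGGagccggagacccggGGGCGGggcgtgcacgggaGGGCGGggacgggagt
Lamb1: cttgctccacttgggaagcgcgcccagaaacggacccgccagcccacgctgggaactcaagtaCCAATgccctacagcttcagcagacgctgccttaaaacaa
Lama5: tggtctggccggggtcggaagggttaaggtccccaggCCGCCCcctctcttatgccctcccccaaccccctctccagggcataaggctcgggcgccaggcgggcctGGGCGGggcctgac
Of the 10 members, 7 were in the promoter table (Col4a1, Col4a2, Lama2, Lama5, Lamb1, Nid1 and Hspg2). In their 300-base windows, searched on both strands, a GC box was found in 7 of 7, a CCAAT box in 4 of 7 (Col4a1, Col4a2, Lamb1 and Nid1) and the TATA box TATAAA in 0 of 7. The shares of all 32851 windows that held them were 35.7%, 37.4% and 13.6%. The Col4a1 and Col4a2 windows overlap and are not separate examples.

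All 10 genes were above 3 reads in every clone, and together they took between 0.277% (B3) and 0.962% (C2) of all normalized counts, with a median of 0.631%. A normalized count is a read multiplied by 1 factor per library, which here is worth between 1.26 and 2.19. The spread between clones was wide. The median SD of the 10 members on the log2 scale was 0.61, against 0.21 over the 12301 genes whose mean reached 50 normalized counts. Counting error at the mean number of reads was between 0.515% (Col4a1) and 5.45% (Lama4), while the CV between clones was between 30.5% (Hspg2) and 82.0% (Nid2). No length was available for dividing the counts, so levels are compared between clones and not between genes.

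**Figure D1:**
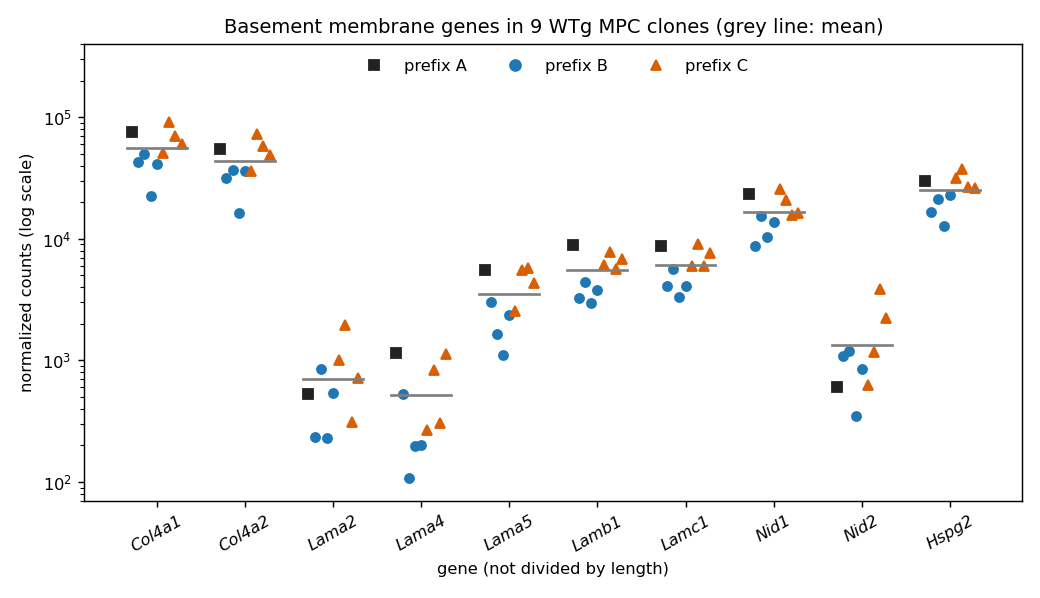
Normalized counts (log scale, not divided by gene length) of the 10 basement membrane genes in the 9 WTg MPC clones; each point is 1 clone, its shape and colour give the column prefix, and the grey line is the mean. B3 is the lowest clone for most genes, and the 4 prefix C clones sit above the 4 prefix B clones for Col4a1, Lamb1, Lamc1, Nid1 and Hspg2.

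Collagen IV was represented by the α1 and α2 chains. Col4a1, which encodes the α1 chain (chr8:11198423-11312889 in the RefSeq gene table, whose end differs from the start used for the window above), was at 22538 normalized counts in the lowest clone (B3), 50950 at the median and 91048 in the highest (C2), a 4.04-fold range. Col4a2, which encodes the α2 chain (chr8:11312805-11449287), was at 16375 (B3), 36683 and 72210 (C2) in the same order, a 4.41-fold range. The same clone was lowest and the same clone highest for both. The ratio of Col4a1 to Col4a2 normalized counts stayed between 1.15 (B4) and 1.42 (C1), a 1.24-fold range.

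The other collagen IV chains were at lower counts or near the floor. Col4a5, the α5 chain, was at 1373 to 4264 normalized counts, and its ratio to Col4a1 varied 2.63-fold. Col4a6, the α6 chain, was at 25.2 to 312. Col4a4, the α4 chain, was at 0 to 5.05, with 4 reads in its highest library, and exceeded 3 reads in 1 clone. Col4a3 was not analysed, as no usable row was found under its symbol.

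The laminin β1 and γ1 chains varied least among the laminin members. Lamb1, the β1 chain (chr12:31265146-31329644), was at 2971 normalized counts in B3, 5656 at the median and 8955 in A. Lamc1, the γ1 chain that most laminins contain (chr1:153218922-153332786), was at 3293 in B3, 6010 at the median and 9064 in C2. Their ranges were 3.01-fold and 2.75-fold, and the ratio of Lamb1 to Lamc1 normalized counts lay between 0.783 (B2) and 1.02 (A).

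The laminin α chains differed from clone to clone far more. Lama2, the α2 chain of the merosin laminins of muscle and nerve (chr10:26981285-27617191), was at 232 normalized counts in B3, 535 at the median and 1956 in C2, an 8.45-fold range. Lama4, the α4 chain of endothelial and mesenchymal laminins (chr10:38965515-39110188), was at 107 in B2, 305 at the median and 1147 in A, a 10.7-fold range. Lama5, the α5 chain of laminins of epithelia and vessels (chr2:180176373-180225904), was at 1108 in B3, 2994 at the median and 5723 in C3, a 5.16-fold range. The highest clone was a different one for each of the 3 α chains.

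The clones therefore differed in their mix of α chains. The ratio of Lama4 to Lama2 normalized counts ran from 0.126 (B2) to 2.28 (B1), an 18.2-fold range within libraries of a single prefix. Lama4 was above Lama2 by count in A, B1 and C4 and below it in the other 6 clones. Because counts grow with transcript length, where the ratio crosses 1 says nothing of which chain had more transcripts, and only its movement between clones is a comparison. The ratio of Lama5 to Lamc1 moved 3.22-fold, that of Lama2 to Lamc1 4.18-fold and that of Lama4 to Lamc1 7.80-fold, against 1.31-fold for Lamb1 to Lamc1.

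**Figure D2:**
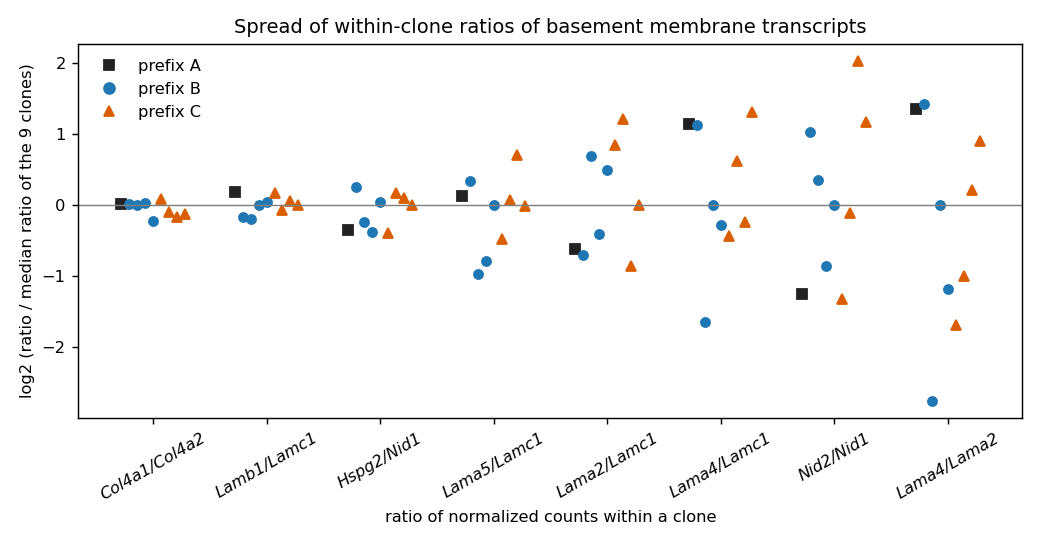
Log2 of 8 ratios of normalized counts within a clone, each divided by its median over the 9 clones; points are clones, with shape and colour by column prefix. Col4a1/Col4a2 and Lamb1/Lamc1 stay close to 0 in all clones, while Lama4/Lama2 and Nid2/Nid1 spread over an 18.2-fold and a 10.2-fold range.

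Among the laminin chains outside the 10 genes, Lamb2, the β2 chain of muscle synapse and kidney laminins, was at 1694 to 5869 normalized counts. Lama1, the α1 chain of the early embryo, was at 16.5 to 784, a 47.4-fold range, the widest of the α chains measured. It was at 16.5 to 72.3 in the prefix B libraries and at 112 to 784 in the prefix C libraries, without overlap, as 4.24% of all genes were in that direction. Of the 6 laminin chains on this list, 1 other was higher in every prefix B library, as 5.25% of all genes were. Lamb2 rose with the fibroblast marker sum described below (slope 0.94 ± 0.20, SE, n = 9, limma adjusted p = 0.0277), and neither Lama1 nor any of the other collagen IV chains passed on that sum, on the macrophage sum or on Mettl3.

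The nidogens, which link laminin γ1 to collagen IV, did not move together. Nid1 (chr13:13437602-13512275) was at 8739 normalized counts in B1, 15562 at the median and 25888 in C1, a 2.96-fold range. Nid2 (chr14:19751257-19811787) was at 347 in B3, 1083 at the median and 3865 in C3, an 11.1-fold range and the widest of the 10. The clone with the highest Nid1, C1, had 633 normalized counts of Nid2, and the clone with the highest Nid2, C3, had Nid1 at its median. The ratio of Nid2 to Nid1 ran from 0.0244 (C1) to 0.248 (C3).

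Hspg2, which encodes the perlecan core protein (chr4:137468751-137570630), was at 12856 normalized counts in B3, 26147 at the median and 37715 in C2. Its 2.93-fold range and its SD of 0.48 on the log2 scale were close to those of Nid1 (2.96-fold and 0.52). The ratio of Hspg2 to Nid1 lay between 1.22 (C1) and 1.92 (B1).

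Whether genes whose products share a molecule or bind each other varied together was asked for 10 pairs over the 9 clones, with an exact permutation test of log2 values (two-sided, Benjamini-Hochberg over the 10 pairs). The pairs were chosen with results of these data known, so these p-values describe the clones and are no independent evidence. By Pearson's r, 6 of 10 pairs passed, and by Spearman's rho 5 of 10 passed. For Col4a1 with Col4a2, r was 0.987 and rho 0.900 (exact permutation p = 6.06e-05 and 0.00203, adjusted 0.000303 and 0.00507). For Lamb1 with Lamc1, r was 0.973 and rho 0.983 (exact permutation p = 1.38e-05 and 4.96e-05, adjusted 0.000138 and 0.000496). With the 2 clones left out that lay farthest from the median of the first gene, r was 0.945 and 0.951 for these pairs.

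**Figure D3:**
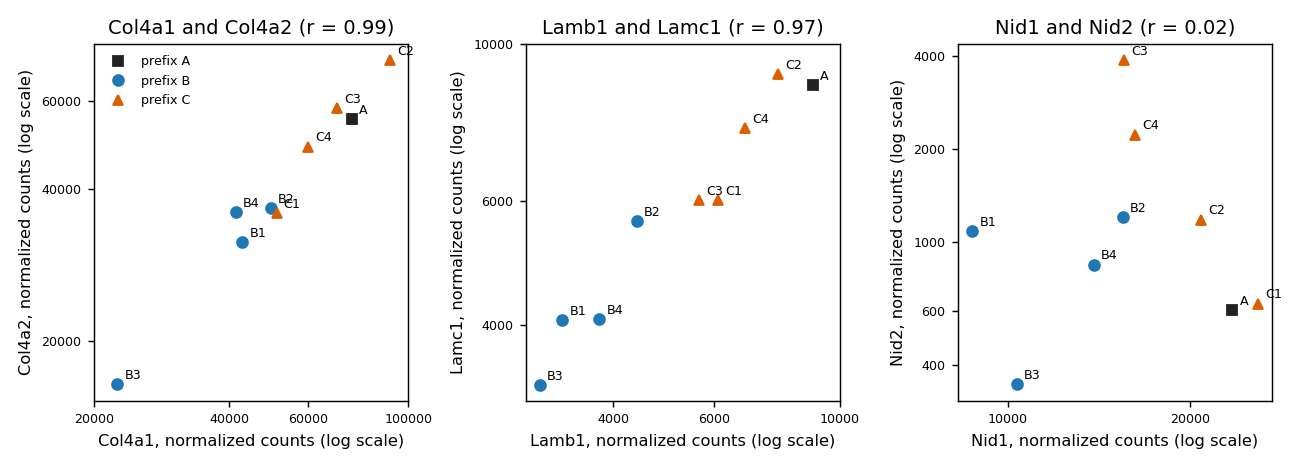
Normalized counts (log scales) of Col4a1 and Col4a2, Lamb1 and Lamc1, and Nid1 and Nid2; each point is 1 of the 9 clones, labelled by library, with shape and colour by column prefix. The first 2 pairs rise along a line (r of 0.99 and 0.97) and the nidogens do not (r of 0.02).

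Across the networks the relations were looser by r. By rho, Col4a1 with Lamc1 and Hspg2 with Nid1 were not below Col4a1 with Col4a2 (0.900). Differences between correlations were not tested. For Col4a1 with Lamc1, r was 0.919 and rho 0.933 (exact permutation p = 0.000154 and 0.00075, adjusted 0.000514 and 0.00375). For Hspg2 with Nid1, r was 0.876 and rho 0.900 (exact permutation p = 0.00222 and 0.00203, adjusted 0.00556 and 0.00507), but r was 0.760 (exact permutation adjusted p = 0.101) without the 2 farthest clones. For Nid1 with Lamc1, r was 0.793 and rho 0.867 (exact permutation p = 0.0109 and 0.00451, adjusted 0.0218 and 0.00902), and r was 0.937 without those clones.

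Of the α chains, Lama5 with Lamc1 passed by r and not by rho (r 0.789 and rho 0.683, exact permutation p = 0.0136 and 0.0503, adjusted 0.0226 and 0.0629). Its r was 0.743 (exact permutation adjusted p = 0.107) without the 2 farthest clones. Lama2 with Lamc1 (r 0.700, rho 0.683, exact permutation p = 0.0366 and 0.0503, adjusted 0.0523 and 0.0629) and Lama4 with Lamc1 (r 0.661, rho 0.700, exact permutation p = 0.0572 and 0.0433, adjusted 0.0715 and 0.0629) did not pass. Their r fell further, to 0.394 and 0.449, without the 2 farthest clones, which those relations leaned on.

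Neither of the 2 pairs tested for Nid2 passed. With Lamc1 its r was 0.363 and rho 0.250 (exact permutation p = 0.341 and 0.521, adjusted 0.379 and 0.578), and with Nid1 r was 0.019 and rho 0 (exact permutation p = 0.961 and 1, adjusted 0.961 and 1). Without the 2 farthest clones the values were 0.0952 and 0.234. All 45 pairs that the 10 members can form had a positive r, from 0.019 to 0.987 with a median of 0.67, as a description.

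The prefixes and the fibroblast marker level moved with these relations. With the values centred within prefixes B and C (8 clones), r stayed at 0.976 for Col4a1 with Col4a2 and 0.950 for Lamb1 with Lamc1 (exact permutation adjusted p = 0.026 and 0.0174), and the other 8 pairs did not pass. By rho only Lamb1 with Lamc1 passed there (0.952, exact permutation adjusted p = 0.0347), and Col4a1 with Col4a2 did not (0.929, exact permutation adjusted p = 0.0521). Col4a1 with Lamc1 was then at 0.798, Hspg2 with Nid1 at 0.698, Nid1 with Lamc1 at 0.353 and Lama5 with Lamc1 at 0.338. With each value divided by the summed fibroblast markers of its library, an alternative chosen after seeing the data, the same 2 pairs passed by r, at 0.910 and 0.887 (exact permutation adjusted p = 0.00829 and 0.00829). By rho, again only Lamb1 with Lamc1 passed (0.867, exact permutation adjusted p = 0.0451), and Col4a1 with Col4a2 did not (0.800, exact permutation adjusted p = 0.0691). Col4a1 with Lamc1 was then at 0.393, Nid1 with Lamc1 at 0.587 and Lama5 with Lamc1 at 0.126. Hspg2 with Nid1 had an r of 0.803 and a rho of 0.0167, so the ranks of those genes showed no relation after the division. A common divisor can itself raise r, and how much of each r it makes was not tested. B3 was the clone whose omission lost most pairs, with 4 of 10 passing without it.

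**Figure D4:**
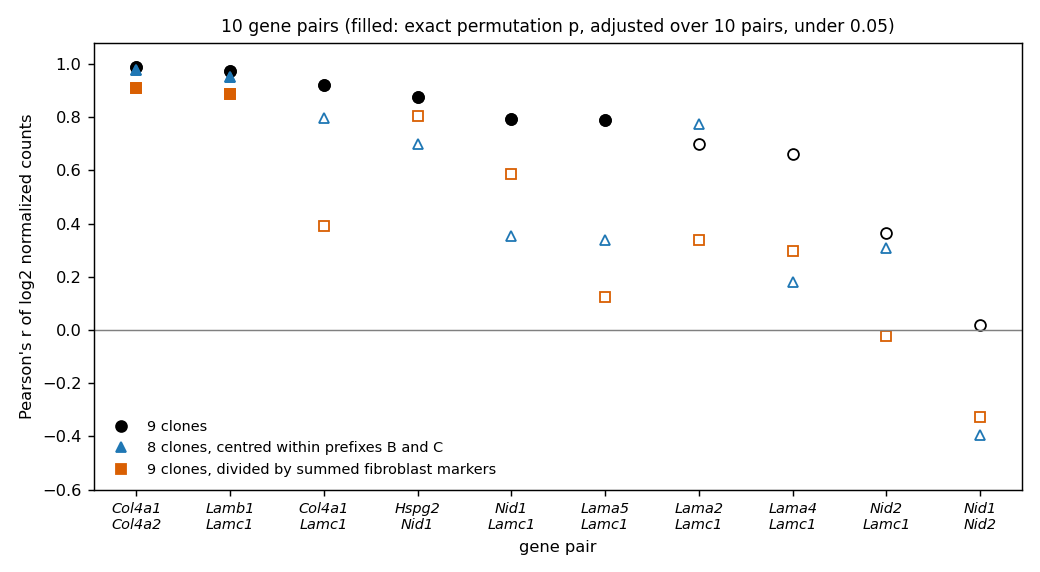
Pearson's r of 10 gene pairs over the 9 clones (circles), over 8 clones centred within prefixes B and C (triangles), and after division by the summed fibroblast markers (squares); filled symbols have an exact permutation p, adjusted over 10 pairs, under 0.05. Col4a1 with Col4a2 and Lamb1 with Lamc1 stay filled and above 0.88 in all 3, and no other pair is filled in the last 2.

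As a description, each member was ranked against the 12300 other genes whose mean reached 50 normalized counts by Pearson's r of log2 values over the 9 clones, which share their library and scaling. The highest of 12300 values of r over 9 clones can be high for unrelated genes too, and how high was not tested. The leading genes here and below are therefore not read as partners of a member. Col4a2 was at rank 2 for Col4a1 (r 0.987), between Fads3 (0.992) and Gjc1 (0.986), and Col4a1 was at rank 1 for Col4a2. Lamb1 was at rank 8 for Lamc1, whose first 3 genes were Anxa2, Qsox2 and Fez1 (r 0.981, 0.981 and 0.979). Nid1 was led by Ergic2, Gcsh and Vdac1 (r 0.991, 0.985 and 0.976), and Hspg2 was at rank 249 for it. Hspg2 was led by Itprip, Pdlim7 and Pak3 (r 0.981, 0.977 and 0.971).

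For the α chains and Nid2 the leading genes were different ones. Lama2 was led by Zzef1, Txndc11 and Krtcap2 (r 0.972, 0.968 and 0.960), Lama4 by Sfrp1, C1ra and Pfkl (r 0.977, 0.936 and 0.935) and Lama5 by Ttc28, Adm2 and Podn (r 0.985, 0.969 and 0.969). Nid2 was led by Cert1, Fzd5 and Syne3 (r 0.949, 0.928 and 0.918), and of the members Col4a2 (r 0.627) was at rank 366, Lama5 (r 0.601) at rank 447 and Nid1 at rank 5549 of 12300 for it. For Lama5, Col4a2 was at rank 43 and Col4a1 at rank 61, ahead of Lamb1 and Lamc1 at ranks 405 and 401.

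Between the prefixes with 4 libraries each, 5 of the 10 genes did not overlap, and all 5 were higher in prefix C. This happened in 4.24% of the 16962 genes tested, and the opposite, prefix B above prefix C in every library, in 5.25% of them and in 0 of the 10 members. Col4a1 was at 22538 to 49402 normalized counts in prefix B and 50950 to 91048 in prefix C, with the lowest C clone only just above the highest B clone. Lamb1 was at 2971 to 4396 and 5656 to 7772, the clearest gap of the 5. Lamc1 was at 3293 to 5618 and 6010 to 9064, Nid1 at 8739 to 15503 and 15562 to 25888, and Hspg2 at 12856 to 22928 and 26147 to 37715. The mean of prefix C was 1.62 (Nid1) to 1.83 times (Lamb1) that of prefix B for these 5.

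Col4a2 overlapped by a small margin, with 36683 in its highest prefix B clone and 35851 in its lowest prefix C clone. Lama2, Lama4, Lama5 and Nid2 overlapped between the prefixes. With upper quartile scaling Nid1 overlapped too, which left 4 members. What the prefixes stand for is not given, and the markers that moved with them were not the same in kind. Of the 14 fibroblast markers, Col5a1, Pdgfra, Vim and Acta2 were higher in every prefix C library. The other 10 overlapped, and Dcn and Lum had a lower mean in prefix C than in prefix B (373 against 1366, and 4.12 against 28.1). Of the 16 macrophage markers Adgre1, C1qb and Mertk were higher in every prefix B library. Prefix, the sex-linked genes above and these markers cannot be told apart.

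The fit on the fibroblast marker level was added after seeing the data. It used limma with a slope on log2 of the summed fibroblast markers, over the 9 clones and 16948 genes. Of the 10 members, 6 rose with the marker level (Col4a1, Col4a2, Lama5, Lamb1, Lamc1 and Hspg2), against 4.22% of all genes tested, and 0 fell. The slope, in log2 units of the gene per log2 unit of the marker sum, was 1.226 ± 0.174 (SE, n = 9) for Col4a1 and 1.303 ± 0.175 for Col4a2, with a limma adjusted p of 0.00871 for each. It was 1.04 ± 0.15 for Lamc1 (limma adjusted p = 0.00917), 1.09 ± 0.20 for Lamb1 (0.0167), 1.55 ± 0.33 for Lama5 (0.0273) and 0.90 ± 0.19 for Hspg2 (0.0284).

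The other 4 members had positive slopes that did not pass. They were 1.48 ± 0.55 for Lama2 (limma adjusted p = 0.109), 1.68 ± 0.68 for Lama4 (0.135), 0.75 ± 0.28 for Nid1 (0.116) and 0.91 ± 0.67 for Nid2 (0.391). The median slope of the 10 members was 1.16, and that of all genes tested was -0.03. Without the prefix A library 4 members passed (Col4a1, Col4a2, Lamb1 and Lamc1). The same 4 passed by limma without a trend, where Lama5 had an adjusted p of 0.0552 and Hspg2 one of 0.0538. With the prefix as a term over 8 clones 0 members and 0 genes passed by limma, where 5 members and 1956 genes had an unadjusted p under 0.05. All 10 slopes were positive in each of these fits. The marker sum holds matrix genes such as Fn1 and Col1a1, and whether the members moved with fibroblast content or with matrix genes in general was not tested.

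**Figure D5:**
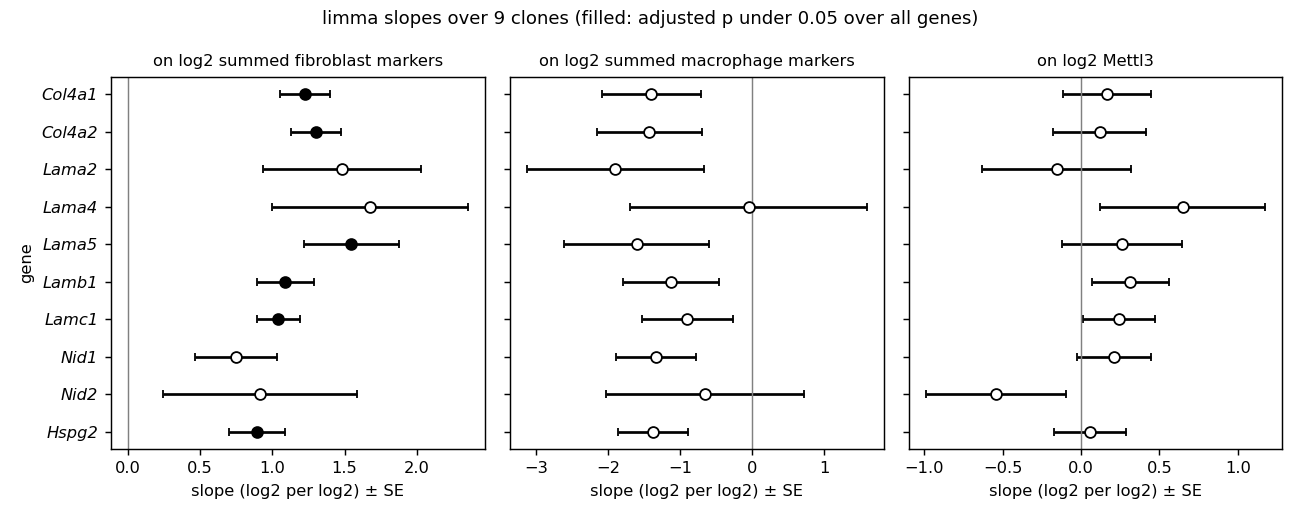
Slopes (log2 per log2, ± SE) of the 10 basement membrane genes over the 9 clones from limma, on the summed fibroblast markers, the summed macrophage markers and Mettl3; filled circles have an adjusted p under 0.05 over all genes. All slopes on the fibroblast markers are above 0 and 6 are filled, and no circle is filled in the other 2 panels.

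On the summed macrophage markers, 0 of the 10 members and 0 of 16946 genes passed by limma, and all 10 slopes were negative, with a median of -1.37 against 0.04 over all genes. At an unadjusted p under 0.05 were 2 members, Hspg2 (slope -1.39 ± 0.49, SE, n = 9) and Nid1 (-1.34 ± 0.56), against 9.8% of the genes tested. The sum was mostly Lyz2. Without Lyz2, an alternative chosen after seeing the data, 3 members (Lamb1, Nid1 and Hspg2) fell with the macrophage markers by limma, against 3.46% of all genes. With the mean of z-scores over the 16 markers 3 members fell as well, where 436 of 16946 genes fell. In the first fit, with Lyz2 in the sum, the shallowest slope was that of Lama4, at -0.05 ± 1.64.

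Mettl3 itself was at 2184 normalized counts in A and between 468 and 621 in the other 8 clones, and counts do not separate the transgene from the mouse gene. On log2 Mettl3, 0 of the 10 members passed by limma in either direction, against 2.46% of 16961 genes, and 0 members had an unadjusted p under 0.05. Slopes were positive for 8 of 10 genes, from -0.54 ± 0.45 (SE, n = 9) for Nid2 to 0.65 ± 0.53 for Lama4. These slopes rested on the prefix A library. Without it all 10 were negative, with a median of -2.57, and 5 members had an unadjusted p under 0.05 (Col4a1, Col4a2, Lama5, Lamb1 and Hspg2), against 10.5% of the genes. No gene passed the limma threshold there. Mettl3 was then at 515 to 621 in the prefix B libraries and 468 to 502 in the prefix C libraries, so it was higher in every prefix B library.

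A list of 13 genes held enzymes and chaperones of collagen, drawn up for the making and crosslinking of collagen IV. Serpinh1, the collagen chaperone HSP47, was at 10172 to 33622 normalized counts, P4hb, the β subunit of prolyl 4-hydroxylase, at 18127 to 32502, and Loxl2, a lysyl oxidase that crosslinks collagen IV, at 10940 to 28083. On the fibroblast marker level 8 of 13 rose and 0 fell by limma, with a median slope of 0.53, where 4.22% of all genes rose. Serpinh1 had a slope of 1.19 ± 0.21 (limma adjusted p = 0.0154, n = 9) and Loxl2 one of 0.89 ± 0.24 (0.0498), while P4hb, at 0.50 ± 0.14 (0.0535), did not pass. Between the prefixes 4 of 13 (P3h1, P4ha2, Pxdn and Serpinh1) were higher in every prefix C library, as 4.24% of all genes were. P3h1 and P4ha2 hydroxylate prolines of collagen, and Pxdn, peroxidasin, forms the sulfilimine bonds of collagen IV. These 4 were named after their values were seen. So was P3h2, a prolyl 3-hydroxylase, which was above 3 reads in 6 of the 9 clones. It overlapped between the prefixes and had a lower mean in prefix C than in prefix B (9.13 against 22.0). Its slope on the fibroblast markers was -1.72 ± 0.81 (limma adjusted p = 0.189, n = 9).

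Of 11 other basement membrane components, all were above 3 reads in every clone. With the fibroblast markers 2 of them rose (Col15a1 and Fbln1, named after their values were seen) and 0 fell, where 4.22% of all genes rose. Fbln2, a fibulin that binds nidogens and laminins, was at 39752 to 140700 normalized counts, Sparc, a collagen-binding matricellular protein, at 36765 to 98726, and Col18a1, the collagen that yields endostatin, at 708 to 6964. Fbln2 (slope 1.11 ± 0.33, limma adjusted p = 0.0629, n = 9) and Sparc (0.73 ± 0.26, 0.103) did not pass. Npnt, nephronectin, a ligand of integrin α8β1, was the 1 gene of the list that changed with Mettl3, with a slope of -1.67 ± 0.25 (limma adjusted p = 0.00848, n = 9). It was at 184 normalized counts in A and at 841 or more in the other 8 clones, so that slope rested on A.

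The 10 receptors were all above 3 reads in every clone. Itgb1, the integrin β1 subunit, was at 30138 to 45535 normalized counts, Itga6, a laminin-binding α subunit, at 2888 to 6850, and Dag1, dystroglycan, at 4364 to 5972. The 1.51-fold range of Itgb1 and the 1.37-fold range of Dag1 were narrower than that of any of the 10 basement membrane genes. Itga6 was the 1 receptor of 10 that was higher in every prefix B library than in any prefix C library (6384 to 6850 and 2888 to 5722). That held for 5.25% of all genes tested, and it is the opposite direction to Lamb1 and Lamc1. On the fibroblast markers 0 of 10 receptors rose and 1 fell (Itga3, another laminin-binding subunit, named after its value was seen). Of all 16948 genes tested, 716 rose and 841 fell.

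Of 4 matrix proteases, Mmp14, a membrane-bound metalloproteinase, was at 5346 to 16100 normalized counts and rose with the fibroblast markers (slope 0.996 ± 0.190, limma adjusted p = 0.0193, n = 9). Mmp2, the gelatinase that MMP14 activates and that cleaves collagen IV, was at 1198 to 10979. Mmp3, stromelysin 1, was at 783 in A and between 8.83 and 53.4 in the other 8 clones, and its slope on log2 Mettl3 (2.26 ± 0.40, limma adjusted p = 0.0195, n = 9) rested on A.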

How the data were processed

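RNA-seq of 9 WTg MPC clones was used. Per the labels, libraries were made with a TruSeq stranded mRNA kit, and the submitters' processing notes name FastQC 0.11.9, STAR 2.7.10, RSEM 1.3.3 and the build GRCm38. The authors deposited log2 values with 1 scaling factor per library and an offset of 4 added before the log2, and 2 to the value minus 4 is called normalized counts here. Whole reads were recovered: 100% of nonzero values under 1000 reads came out within 0.1 of a whole number. No 2 libraries agreed within counting noise (lowest chi-square per degree of freedom 22.8, B1 and B4, 15236 genes). A further 6 columns, of samples from other studies, were not used. The 10 genes, the gene lists and the pairs were chosen with earlier results of these data known.

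Values were taken as log2(normalized counts + 1). Slopes came from limma 3.58.1 (R 4.3.3, eBayes with a trend) over genes whose mean reached 1 normalized count, with Benjamini-Hochberg adjustment over all genes tested. The genes that define a marker sum were left out of its fit. Pairs used exact permutations of 9 clones, or of the clones kept where some were left out (SciPy 1.17.1), and adjusted p under 0.05 was called. For values centred within prefixes only permutations within a prefix were used, and the smallest exact permutation p possible there was 0.00174. Genes named outside the members were the 3 with the highest mean of each list, the leading gene of a marker list, the 3 most alike genes of each member, and genes named after their values were seen (list or marker genes that were called, did not overlap between prefixes, or stood out by their level). One gene that this rule names is not reported here. The tests were checked on simulated data. Of the identifiers, 18033 matched gene names. Sequences and positions are those of RefSeq, GRCm38.p6. A value of 3 reads was the floor (3.79 to 6.56 normalized counts), which covers counting error only. RSEM shares reads between transcripts, so its counts may split overlapping genes. Other scalings, filters, pseudocounts and left-out libraries were tried.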

Additional observations from a re-analysis of the deposited data

Results flagged for a closer look

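Dixon's ratio is the gap of the highest or lowest clone to its neighbour over the whole range. It was taken within the 9 clones for 49 genes and ratios, on normalized counts and not on log2 values. Of these, 7 exceeded the critical value at the usual level. Chance gives about 1 in 20, or 2.45, only for independent and normally distributed values, and some genes recur in the ratios. All 7 exceeded it through the highest clone, and log2 values were not checked, so 7 is not read as an excess over 2.45. Of the 10 members Lama2 exceeded the critical value (0.55), through its highest clone, C2. The ratio of Nid2 to Nid1 did (0.499), through C3. Among the other genes it was Mettl3 (0.911) and Mmp3 (0.942) through A, Fn1 (0.503) through C2, Col18a1 (0.497) through B1, and Col4a4 (0.496) through B4, where the value rests on 4 reads. No cause was tested.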

How the results depend on the processing

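No paired analysis was possible because the labels give only 1 group. A division of levels by protein or transcript length was not run, since no such lengths were at hand. The mean level of each member moved by less than 1 SD with upper quartile scaling, with total scaling and without the prefix A library. Of the 10 pairs, 6 passed, 4 to 7 when a clone was left out, 2 centred within prefixes and 2 after division by the fibroblast markers. The r of Nid1 with Nid2 ran from -0.32 (without B3) to 0.19 with a clone left out and was -0.39 centred and -0.33 after division, and that of Nid2 with Lamc1 was -0.0229 after division. With the prefix as a term, 0 members and 0 genes passed on the fibroblast markers (6 and 1557 before), and 4 members and 555 genes passed without a trend, and 4 and 531 without A.

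On the macrophage markers 3 members passed with z-scores and 3 without Lyz2 (0 before), and of all genes 1 passed without a filter, 1182 with z-scores and 1542 without Lyz2 (0 before). Slopes changed sign for Lama4 (0.035 with voom, 0.0024 with upper quartile scaling, 0.11 without A, 2.29 with the prefix as a term), Lamc1 (0.0396 with the prefix) and Nid2 (0.63 with the prefix).

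On Mettl3 417 genes passed, 238 with a mean of at least 50, 69 with voom, 656 with a pseudocount of 0.1, and 0 without A or with the prefix as a term. Without A the slopes turned to -2.55 (Col4a1), -2.81 (Col4a2), -4.02 (Lama4), -4.23 (Lama5), -2.35 (Lamb1), -1.82 (Lamc1), -2.01 (Nid1) and -2.54 (Hspg2). With the prefix as a term they turned to -0.69 (Col4a1), -1.17 (Col4a2), 1.04 (Lama2), -1.36 (Lama4), -2.69 (Lama5), -0.0861 (Nid1) and -1.27 (Hspg2). Leaving out A removes most of the range of Mettl3, and the prefix term leaves fewer degrees of freedom. No cause of these changes was tested. Depth limits Lama4, with 75 reads in its lowest clone, and the genes at or under 3 reads.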
